A study of Mus musculus with 6 samples.

Results

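A set of 10 genes of the circadian clock were followed here in mouse ovarian granulosa cells: Per1, Per2, Per3, Clock, Npas2, Cry1, Cry2, Nr1d1, Nr1d2 and Dbp. They were taken by name, and every probe set (a group of short array probes that reads 1 transcript) whose only gene symbol was one of the 10 was kept, which gave 23 of the 45037 probe sets fitted. All 10 genes were found, among 18193 genes with a probe set of their own. Each gene was described by its brightest probe set, chosen by its mean log2 value across the 6 arrays, and its other probe sets are given where they differed. RNA of granulosa cells, the somatic cells that enclose the oocyte in the follicle, was hybridised to 6 Affymetrix arrays in 3 groups of 2. The first group was a double knockout, called dKO, at 2 months of age, with the genotype Foxo1 f/-; Foxo3 f/-; Amhr2-cre, in which Cre recombinase is made from the Amhr2 gene that granulosa cells express. The second was the same genotype at day 25, and the last was wild type (WT) at day 25. The genetic background was FVB mixed with C57BL/6 in each group, and housing was under 16 h of light and 8 h of dark. The hour at which ovaries were taken, the number of mice behind each sample and the part of each Foxo gene that is removed are not given in the sources used here. A WT group of 2 months was not analysed here, so age and genotype cannot be told apart in the comparison of dKO at 2 months with WT at day 25.

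The clock is a loop of transcription factors found in most cells of the body, the ovary included. CLOCK, or its relative NPAS2, pairs with BMAL1 (gene Arntl) and switches on the Per, Cry, Nr1d and Dbp genes through a short DNA element, the E-box. PER and CRY proteins then return to the nucleus and block that pair. NR1D1 and NR1D2 repress genes with ROR elements, Arntl and Npas2 among them, and DBP acts through the D-box, at which the repressor NFIL3 competes with it. In the peripheral tissues of the mouse, transcripts of the E-box and D-box genes (here the day arm: Nr1d1, Nr1d2, Dbp, Per1, Per2, Per3) run high when those of the ROR-element genes (the opposite arm: Npas2, Clock, Cry1) run low, and Nr1d1 peaks before Dbp, which peaks before Per2.

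Short stretches of start-site sequence show where these elements lie in the genes described here. Promoters of 300 bases, 250 before and 50 after the start site, came from RefSeq (GRCm38.p6), which held 9 of the 10 genes, all but Per2. The elements searched on either strand were the E-box CACGTG, the D-box TTATGTAA, the cAMP response element TGACGTCA, the FOXO element GTAAACA and the ROR element by name. Among all 32851 promoters of this length, 7.15% held the E-box, 0.938% the D-box, 1.79% the cAMP response element, 3.65% the FOXO element and 0.384% the ROR element. Of the 9 genes, 2 held an E-box (Per1, in 1 promoter, and Cry1), 1 a D-box (Per3) and 1 a FOXO element (Cry1). None held the cAMP response element or the ROR element, and Nr1d1, Nr1d2 and Dbp held no match. Elements outside these 300 bases, or with letters other than those searched, would be missed. Among clock genes outside the 10, the ROR element was found in a promoter of Arntl. E-boxes lay in Tef, Ciart and Bhlhe41, a D-box in Timeless and the cAMP response element in Hlf. The lines below give 1 promoter each for an E-box gene of the day arm, a D-box gene, a gene of the opposite arm and Arntl, 5′ to 3′ on the gene's own strand, with the matched elements in capitals.
Per1 (chr11:69098699-69098998, plus strand, E-box): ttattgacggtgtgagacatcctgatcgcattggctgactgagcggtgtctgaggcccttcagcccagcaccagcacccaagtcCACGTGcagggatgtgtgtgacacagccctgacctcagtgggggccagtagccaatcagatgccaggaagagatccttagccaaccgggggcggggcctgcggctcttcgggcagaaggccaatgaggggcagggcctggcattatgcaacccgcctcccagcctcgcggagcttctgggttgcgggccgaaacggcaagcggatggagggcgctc
Per3 (chr4:151044616-151044915, minus strand, D-box at 2 places): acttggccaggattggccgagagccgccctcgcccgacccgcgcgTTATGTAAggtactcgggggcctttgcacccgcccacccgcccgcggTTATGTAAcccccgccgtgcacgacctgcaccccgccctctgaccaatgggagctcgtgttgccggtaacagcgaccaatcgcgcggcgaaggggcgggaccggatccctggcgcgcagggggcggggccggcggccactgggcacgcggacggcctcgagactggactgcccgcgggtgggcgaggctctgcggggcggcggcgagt
Cry1 (chr10:85185005-85185304, minus strand, FOXO element and then E-box): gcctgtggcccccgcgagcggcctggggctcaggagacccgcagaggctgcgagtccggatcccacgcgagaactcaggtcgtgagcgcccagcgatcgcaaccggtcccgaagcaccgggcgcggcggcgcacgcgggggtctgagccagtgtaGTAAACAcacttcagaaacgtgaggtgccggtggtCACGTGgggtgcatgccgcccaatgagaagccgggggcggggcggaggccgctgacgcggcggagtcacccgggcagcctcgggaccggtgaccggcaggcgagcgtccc
Arntl (chr7:113207261-113207560, plus strand, ROR element after the start site): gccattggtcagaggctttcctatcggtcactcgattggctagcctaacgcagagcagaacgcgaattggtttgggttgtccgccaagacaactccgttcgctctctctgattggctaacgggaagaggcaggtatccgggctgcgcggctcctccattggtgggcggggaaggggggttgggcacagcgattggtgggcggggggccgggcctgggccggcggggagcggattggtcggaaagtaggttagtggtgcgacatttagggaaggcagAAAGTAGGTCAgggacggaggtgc
The first bases of the matches lie at -166 from the start site in Per1, at -205 and -158 in Per3, at -95 and -60 in Cry1, and at 27 in Arntl, where negative positions lie before it. A match is a description of these letters and not a measured binding site, and no binding data were used.

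The quality of the arrays bears on every comparison. Foxo1, the targeted gene, had intensities of 126 and 343 in dKO at 2 months, 904 and 2291 in dKO at day 25, and 10319 and 7666 in WT. Foxo3, the other one, had 2484 and 1872 in dKO at 2 months, 2539 and 3279 in dKO at day 25, and 1632 and 1342 in WT, so no dKO array was below WT; whether its probes lie in the deleted part is not given in the sources used here. A single array stood apart. dKO 2-month replicate 1 correlated with the other 5 at r between 0.964 and 0.979 across probe sets, where those 5 correlated with each other at r between 0.982 and 0.993. Log2 differences and list counts that involve the 2-month group are therefore also given without that array, or as a range over the arrays left out. In the dKO 2-month group 5.88% of all probe sets lay over 2-fold apart between the replicates, against 1.65% in dKO at day 25 and 1.93% in WT.

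The clock genes were among those that differed between the 2-month replicates. Of the 23 clock probe sets, 9 lay over 2-fold apart there, where the share over all probe sets was the 5.88% above, against 0 in dKO at day 25 and 1 in WT. On the brightest probe sets 5 of the 10 genes (Per1, Per2, Npas2, Cry1 and Dbp) did so, where 8.06% of all genes did. The median gap of the 10 genes was 0.95 on the log2 scale in the 2-month dKO, 0.25 in dKO at day 25 and 0.32 in WT, and over all probe sets these medians were 0.22, 0.14 and 0.14. dKO 2-month replicate 1 held the highest value of 13 of the 23 clock probe sets and the lowest of 3, while it held the highest value of 27.4% and the lowest of 22.3% of all probe sets. These shares describe 1 array, and a difference between 2 replicates of 1 group has no test.

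**Figure D1:**
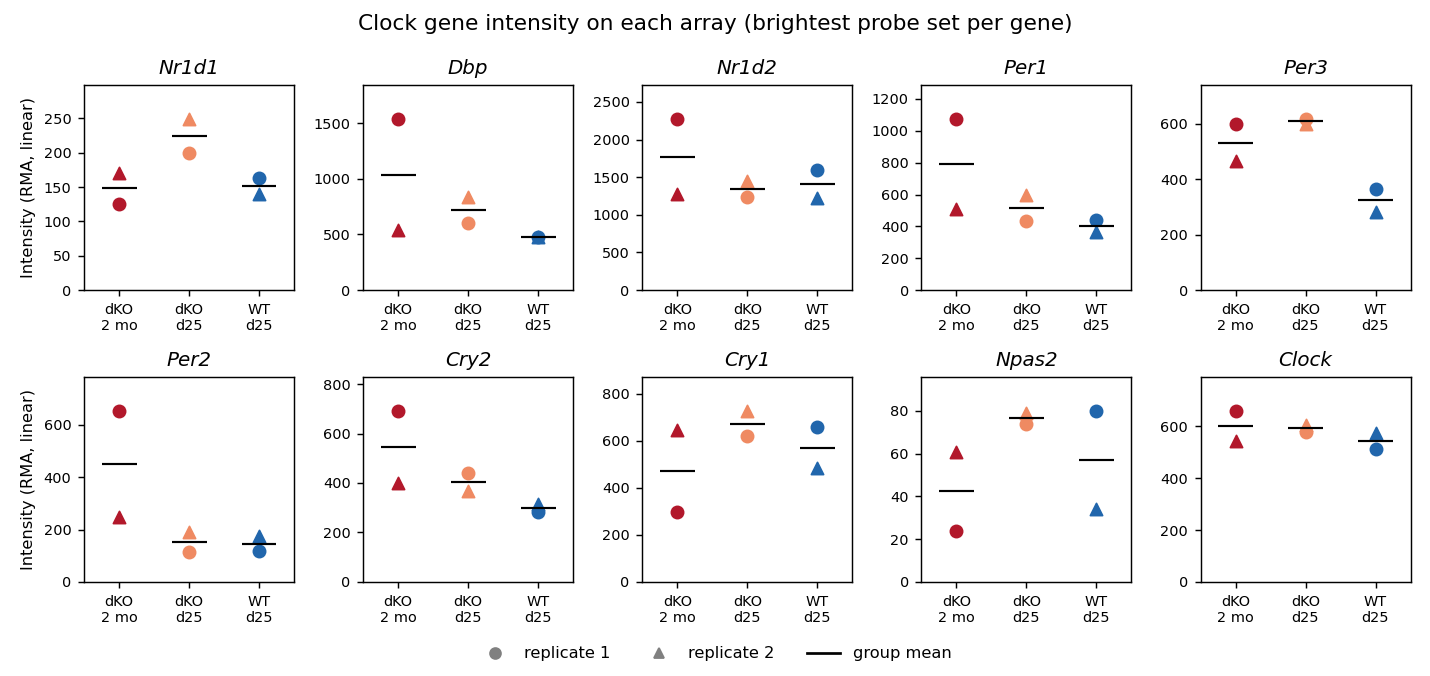
Intensity (linear RMA units, vertical axis from 0) of the brightest probe set of each clock gene on the 6 arrays, by group; circles are replicate 1, triangles replicate 2 and bars the mean of 2 arrays. dKO 2-month replicate 1 is the highest array for Per1, Per2, Dbp, Nr1d2, Cry2 and Clock and the lowest for Cry1, Npas2 and Nr1d1.

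Clock and Npas2 encode the interchangeable partners of BMAL1. Clock intensity was 658 and 543 in dKO at 2 months, 579 and 603 in dKO at day 25, and 511 and 573 in WT at day 25. It had the smallest range of the 10 genes, 0.36 on the log2 scale over all 6 arrays, and its log2 difference was 0.13 ± 0.14 (SE) for dKO against WT at day 25. The second brightest Clock probe set gave 547 and 539 in dKO at 2 months, 611 and 553 in dKO at day 25, and 660 and 505 in WT. The third gave 406 and 317 in dKO at 2 months, 422 and 342 in dKO at day 25, and 329 and 381 in WT. On the third all groups overlapped. On the second both 2-month values lay below both day 25 values of the dKO, and both dKO groups overlapped WT. The dimmest Clock probe set, with values of 36 to 73, differed by -0.53 on the log2 scale between dKO and WT at day 25, opposite to the brightest one. Npas2 was dim, at 24 and 61 in dKO at 2 months, 74 and 79 in dKO at day 25, and 80 and 34 in WT. Both 2-month values lay below both day 25 values of the dKO, but the WT arrays spanned nearly the whole range. The log2 difference of Npas2 was -0.98 ± 0.58 for dKO at 2 months against dKO at day 25 (limma, adjusted p = 0.717). Without dKO 2-month replicate 1 it was -0.32, and the other Npas2 probe set was flat, with values of 33 to 44.

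The Period genes encode the repressors that time the loop. Per1, which cAMP and glucocorticoid signals also induce, had intensities of 1073 and 511 in dKO at 2 months, 435 and 597 in dKO at day 25, and 443 and 365 in WT. Both 2-month arrays lay above both WT arrays, and the distance came mostly from replicate 1. The log2 difference from WT was 0.88 ± 0.39 (SE, limma adjusted p = 0.422) at 2 months, and 0.34 when replicate 1 was left out. Per2, the Period protein whose loss most disturbs rhythms in mice, had 652 and 248 in dKO at 2 months, 114 and 191 in dKO at day 25, and 118 and 175 in WT. It spanned 2.51 on the log2 scale, the widest range of the 10 genes, and 1.11 without dKO 2-month replicate 1. The log2 difference was 1.44 ± 0.55 for dKO at 2 months against dKO at day 25 (adjusted p = 0.712) and 1.48 ± 0.55 for dKO at 2 months against WT (adjusted p = 0.37). Without replicate 1 of that group these were 0.74 and 0.78. The next brightest Per2 probe set gave 643 and 138 in dKO at 2 months, 92 and 158 in dKO at day 25, and 117 and 135 in WT, so on it replicate 2 of the 2-month dKO fell within the day 25 values.

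Per3, a Period gene that is dispensable for the rhythm itself in mice, had 597 and 464 in dKO at 2 months, 616 and 600 in dKO at day 25, and 365 and 283 in WT at day 25. All 4 dKO arrays lay above both WT arrays. The log2 difference from WT was 0.92 ± 0.19 (SE) at day 25 (limma adjusted p = 0.474). The 2-month dKO lay 0.71 ± 0.19 above WT on the same scale (limma adjusted p = 0.298). Leaving out any 1 array moved the day 25 difference between 0.73 and 1.10 and the 2-month difference between 0.53 and 0.89, so its direction did not rest on 1 array. The other Per3 probe sets did not show it. The second brightest gave 165 and 91 in dKO at 2 months, 128 and 94 in dKO at day 25, and 91 and 94 in WT. A pair of dimmer ones gave 158 and 174 on dKO 2-month replicate 1, against 28 to 75 on the other 5 arrays. On the dimmer of that pair dKO was below WT at day 25, by a log2 difference of -0.55. The last 2 were flat, with values of 32 to 48.

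The cryptochromes are the partners of PER in repression. Cry1 had 296 and 645 in dKO at 2 months, 618 and 726 in dKO at day 25, and 656 and 485 in WT. dKO 2-month replicate 1 was the lowest array, and the other 5 overlapped. The log2 difference for dKO at 2 months was -0.61 ± 0.40 (SE) against dKO at day 25 and -0.37 ± 0.40 against WT, and without that array it was -0.05 and 0.19. Cry2 ran the other way, with 691 and 398 in dKO at 2 months, 442 and 369 in dKO at day 25, and 283 and 315 in WT. All 4 dKO arrays lay above both WT arrays. The log2 difference from WT was 0.43 ± 0.29 for the day 25 dKO (limma adjusted p = 0.723). For the 2-month dKO it was 0.81 ± 0.29 (limma adjusted p = 0.361), and it was 0.41 without dKO 2-month replicate 1.

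Nr1d1 and Nr1d2 encode the REV-ERB nuclear receptors, which repress the ROR-element genes. Nr1d1 had 125 and 171 in dKO at 2 months, 199 and 249 in dKO at day 25, and 164 and 140 in WT. The day 25 dKO arrays were the highest, above all 4 others. The log2 difference was 0.55 ± 0.21 (SE) for dKO against WT at day 25 (limma adjusted p = 0.612). It was -0.60 ± 0.21 for dKO at 2 months against dKO at day 25 (limma adjusted p = 0.712). Without dKO 2-month replicate 1 the age difference was -0.38. Nr1d2 had 2271 and 1273 in dKO at 2 months, 1233 and 1446 in dKO at day 25, and 1599 and 1226 in WT. Its groups overlapped in each of the 3 comparisons. The log2 difference was -0.07 ± 0.32 (SE) for dKO against WT at day 25 and 0.35 ± 0.32 for dKO at 2 months against dKO at day 25. Without dKO 2-month replicate 1 the age difference turned to -0.07. Its other probe set was near the bottom of the scale, between 13 and 20.

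Dbp encodes the main activator of D-box genes and is a direct output of the loop. It had 1536 and 540 in dKO at 2 months, 603 and 835 in dKO at day 25, and 476 and 474 in WT. All 4 dKO arrays lay above both WT arrays, with 1 of them far above the rest. The log2 difference from WT was 0.58 ± 0.51 (SE) for the day 25 dKO (limma adjusted p = 0.794), and 0.34 without dKO day 25 replicate 2. For the 2-month dKO it was 0.94 ± 0.51 (limma adjusted p = 0.479), which became 0.18 when its replicate 1 was left out. This probe set is of a type that may also bind related transcripts. The other Dbp probe set gave 429 and 143 in dKO at 2 months, 159 and 228 in dKO at day 25, and 120 and 156 in WT. On it the 2-month dKO and WT overlapped.

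**Figure D2:**
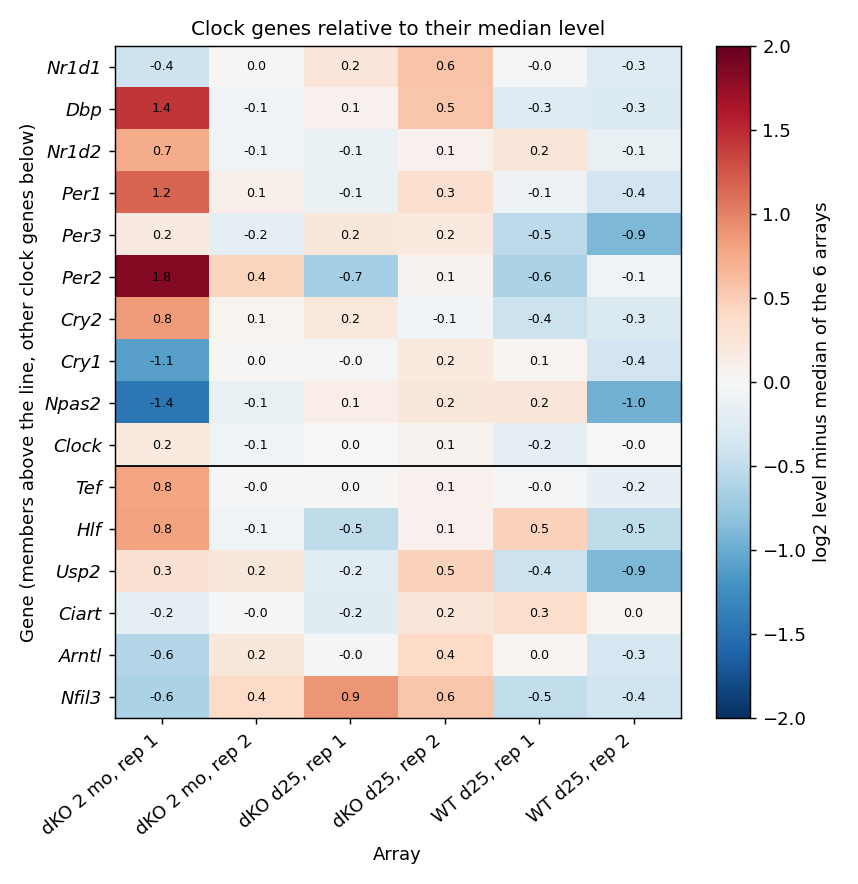
Log2 level of each clock gene on each array minus its median over the 6 arrays (colour and printed value, red higher and blue lower), members above the line and other clock genes below, arrays ordered by group. The column of dKO 2-month replicate 1 carries the strongest colours, red for Dbp, Per1 and Per2 and blue for Cry1 and Npas2.

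Across the whole array set, no probe set passed an adjusted p of 0.05 in any of the 3 comparisons (limma, 0% of 45037 each), so no clock gene did either; at an unadjusted p under 0.05 there were 3668 for dKO against WT at day 25, 2514 for dKO at 2 months against dKO at day 25 and 5900 for dKO at 2 months against WT. The counts below use an unadjusted p under 0.05 and the absence of overlap between the arrays of the groups. For dKO against WT at day 25, 2 clock probe sets of 23 (Per3 and Nr1d1) were higher at that p and 0 lower, where 3.36% of all probe sets were higher and 4.79% lower. Groups did not overlap for 7 clock probe sets that were higher and 1 that was lower, where the shares over all probe sets were 19.7% and 21.5%. On the brightest probe sets 9 of the 10 genes had higher means in the dKO, all but Nr1d2, with a median log2 difference of 0.39, against 0.03 over all genes. Per2 was among the 9 at only 0.04 ± 0.55 (SE), and the signs of Per2 and Npas2 turned with some single arrays left out. The count of clock probe sets at that p changed when some single arrays were left out, and so did the shares over all probe sets. Markers of other cell types moved between the same arrays, and their part in this was not tested. Theca and interstitial markers were split, with 3 higher and 3 lower means in the dKO and a median log2 difference of -0.04. All 11 oocyte markers (median log2 difference 1.12), 9 of 10 leukocyte markers (0.76), 8 of 8 endothelial markers (0.44) and 10 of 10 stromal markers (0.53) had higher means in the dKO.

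For dKO at 2 months against dKO at day 25, 1 clock probe set (Per2) was higher at an unadjusted p under 0.05 and 1 (Nr1d1) lower, where 3.36% and 2.22% of all probe sets were. Groups did not overlap for 1 that was higher and 4 that were lower, where the shares were 18.9% and 13.3%. Both the clock count and the shares over all probe sets changed when single arrays were left out, most of all without replicate 2 of the 2-month dKO. For dKO at 2 months against WT, 3 clock probe sets (Per2, Per3 and Cry2) were higher and 0 lower, where 6.99% and 6.11% of all probe sets were. Groups did not overlap for 9 that were higher and 0 that were lower, where the shares were 22.5% and 18.3%. Here too the clock count and the shares over all probe sets moved with the array left out, most of all without that replicate 2. The comparisons with WT share the WT arrays, and both 2-month comparisons share the 2-month arrays.

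**Figure D3:**
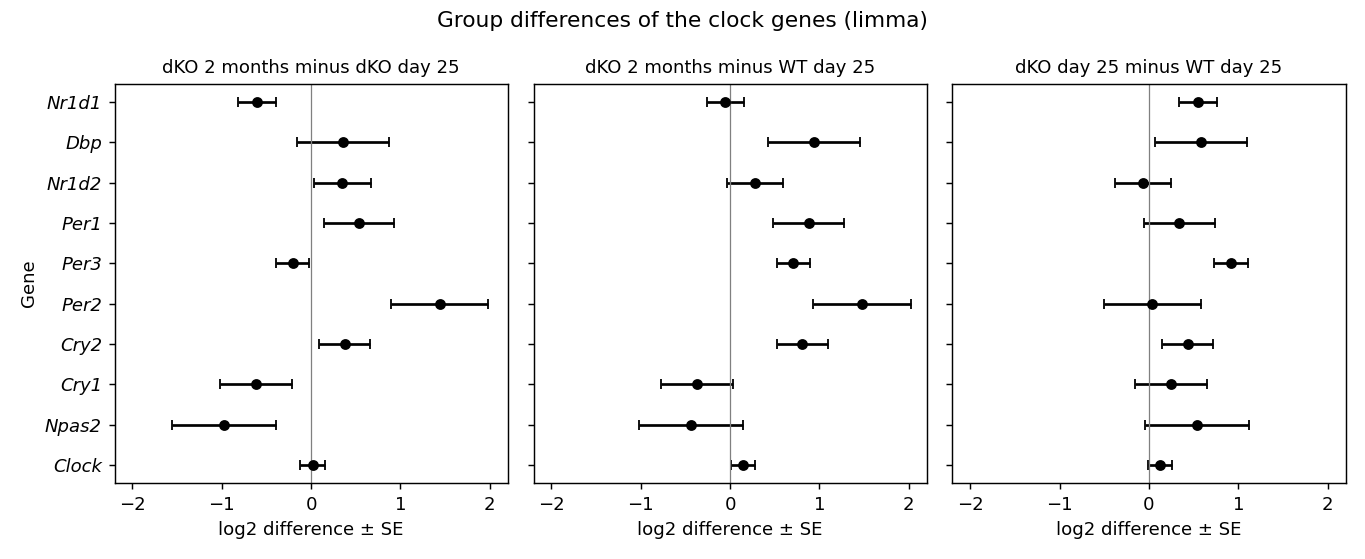
Log2 difference between groups (points) with its standard error (bars, limma) for the brightest probe set of each clock gene in the 3 comparisons. Per3 lies above 0 in both comparisons with WT, and the error bars of Per2, Dbp and Npas2 are the widest.

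The phase of the clock was examined through the balance of its arms. For each array the mean log2 level of the 6 day-arm genes minus that of the 3 opposite-arm genes was taken; only its differences between arrays have a meaning, because probe sets differ in brightness. The contrast was 2.15 and 0.65 in dKO at 2 months, 0.44 and 0.68 in dKO at day 25, and 0.29 and 0.66 in WT. The 5 arrays other than dKO 2-month replicate 1 thus lay within 0.39 of each other, and that array lay 1.50 above its own replicate. As group means the contrast was 1.40 ± 1.06 (SD, n = 2) in dKO at 2 months, 0.56 ± 0.17 in dKO at day 25 and 0.47 ± 0.27 in WT. The genotypes at day 25 therefore differed by 0.09, less than the spread between replicates. The 2-month dKO exceeded the day 25 dKO by 0.84, also less than the spread between its own replicates, and by 0.09 on replicate 2 alone. Over these genes the balance of the arms differed between 2 replicates of 1 group more than between any of the groups. The members were chosen with earlier results known, so no test is given on this contrast.

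**Figure D4:**
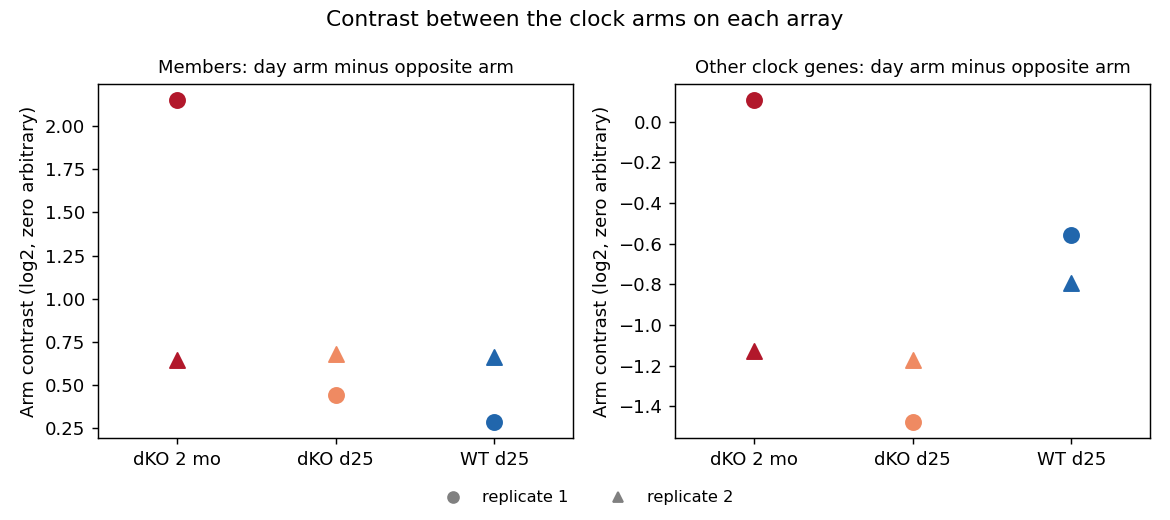
Day-arm minus opposite-arm contrast (log2, zero arbitrary) on each array, for the 10 listed genes on the left and for clock genes outside that list on the right; circles are replicate 1 and triangles replicate 2. dKO 2-month replicate 1 is the highest point in both panels, at 2.15 and 0.11. The other 5 arrays spread over 0.39 on the left and over 0.92 on the right.

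The order of the genes within the day arm gave a further description. On dKO 2-month replicate 1, Nr1d1, the earliest gene of the arm in peripheral tissues, was at its lowest value of the 6 arrays, while Dbp, Per1 and Per2, which follow it, were at their highest. The other REV-ERB gene, Nr1d2, was also at its highest there, with 2271 against 1226 to 1599 elsewhere, and Per3 was not, with 597 against 616 and 600 on the day 25 dKO arrays. Cry2 was at its highest and Cry1, Npas2 and Arntl at their lowest on the same array. On dKO day 25 replicate 2, Nr1d1 was at its highest with 249, and Dbp, Per1 and Per2 were each above the other day 25 dKO array. Genes of the opposite arm were high there too. Cry1 (726) and Arntl (320) were at their highest of the 6 arrays. Npas2 (79) and Clock (603) were above the other day 25 dKO array (74 and 579). A single array cannot give a phase, and whether these arrays were taken at different hours was not tested.

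Of the 19 other clock genes measured, 5 were at their highest and 6 at their lowest on dKO 2-month replicate 1. Over all probe sets 27.4% and 22.3% were. Tef, a D-box activator related to Dbp, had 1702 and 973 in dKO at 2 months, 999 and 1048 in dKO at day 25, and 965 and 881 in WT. Arntl had 161 and 285 in dKO at 2 months, 237 and 320 in dKO at day 25, and 249 and 192 in WT. Nfil3, the D-box repressor, had 305 and 625 in dKO at 2 months, 877 and 700 in dKO at day 25, and 338 and 360 in WT. Tef was at its highest and Arntl and Nfil3 at their lowest on dKO 2-month replicate 1, but Ciart, a repressor of the CLOCK pair, was not high there, with 131 against 125 to 189 on the other arrays. The arm contrast over 5 genes of the day arm (Tef, Hlf, Ciart, Bhlhe41, Usp2) against 2 of the opposite arm (Arntl, Nfil3) was 0.11 and -1.13 in dKO at 2 months, -1.48 and -1.17 in dKO at day 25, and -0.56 and -0.79 in WT. Here the 2 day 25 dKO arrays lay below both WT arrays, by 0.65 in the mean, which the 10 genes did not show. The day arm of these genes overlapped at day 25, with mean log2 levels of 7.36 and 7.72 in dKO and 7.63 and 7.25 in WT. The difference lay in the opposite arm of 2 genes, mostly Nfil3 (log2 difference from WT 1.17) and less Arntl (0.33).

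On the brightest probe sets, Nfil3 and Usp2, 2 of the 19, were higher at an unadjusted p under 0.05 at day 25 and 0 lower, where 3.36% and 4.79% of all probe sets were. Over all 59 probe sets of these genes 3 were higher (Btrc, Nfil3 and Usp2) and 7 lower (Fbxw11, Gsk3b and Rora); these names were chosen after their values were seen. The log2 difference of Nfil3 from WT was 1.17 ± 0.36 (SE, limma adjusted p = 0.558), and both dKO arrays were above both WT arrays. Usp2, a ubiquitin protease that acts on clock proteins and is itself rhythmic, had 836 and 795 in dKO at 2 months, 575 and 929 in dKO at day 25, and 502 and 362 in WT. All 4 dKO arrays were above both WT arrays, and the log2 difference was 0.78 ± 0.28 for the day 25 dKO (limma adjusted p = 0.599) and 0.93 ± 0.28 for the 2-month dKO (limma adjusted p = 0.331). Without dKO day 25 replicate 2 the day 25 value was 0.43, and without dKO 2-month replicate 1 the 2-month value was 0.90. Csnk1e, a kinase that marks PER for decay, had 615 and 846 in dKO at 2 months, against 1040 and 1247 in dKO at day 25 (log2 difference -0.66 ± 0.21, limma adjusted p = 0.712, and -0.43 without dKO 2-month replicate 1). Of 21 listed clock genes outside the 10, 19 were measured and 0 passed after adjustment. At day 25, 8 had higher and 11 lower means in the dKO than in WT, with a median of -0.04 against 0.03 over all genes.

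Per1 and Per2 also answer to cAMP and to glucocorticoids, and the genes that share those inputs were read on the same arrays. Of 13 cAMP and immediate early genes, 12 had higher means in dKO at 2 months than at day 25 (median log2 difference 0.95, against 0.02 over all genes), 7 of them at an unadjusted p under 0.05, where 3.36% of all probe sets were higher, and 0 after adjustment. With any 1 array left out the median ran from 0.62 to 1.19. The count at that p fell from 7 in each such run, and the share over all probe sets changed as well. Without dKO 2-month replicate 1, 11 of the 13 had higher means, with a median of 0.62. Against WT 13 of 13 had higher means in dKO at 2 months, and 11 without that array. Junb, a subunit of the AP-1 factor, had 243 and 253 in dKO at 2 months, 90 and 79 in dKO at day 25, and 79 and 109 in WT, so the 2-month replicates were alike. Nr4a1, an orphan nuclear receptor induced by cAMP, had 2276 and 1053 in dKO at 2 months, 1016 and 734 in dKO at day 25, and 757 and 727 in WT, with replicate 1 of the 2-month group standing apart as for Per1. Fos was opposite, at 1779 and 4530 in dKO at 2 months. The list as a whole had a median relative level of 0.60 on dKO 2-month replicate 1 and 0.34 on replicate 2, and between -0.56 and -0.13 on the other 4 arrays. Of 7 glucocorticoid response genes, 6 had higher means in dKO at 2 months than in dKO at day 25, 1 of them (Zbtb16) at an unadjusted p under 0.05, where 3.36% of all probe sets were higher, and 0 after adjustment; without dKO 2-month replicate 1 these were 7 and 0. Against WT the same list had 4 higher and 3 lower means in dKO at 2 months (median 0.08, and -0.05 without that array). At day 25 it had 2 higher and 5 lower in dKO than in WT, and its median relative level was lowest, at -0.66, on dKO day 25 replicate 1. Fkbp5, a chaperone partner that glucocorticoids strongly induce, was lowest on dKO 2-month replicate 1 with 3628, against 3984 to 5141 elsewhere. Zbtb16, another such target, had 267 and 221 in dKO at 2 months, 63 and 119 in dKO at day 25, and 91 and 76 in WT.

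**Figure D5:**
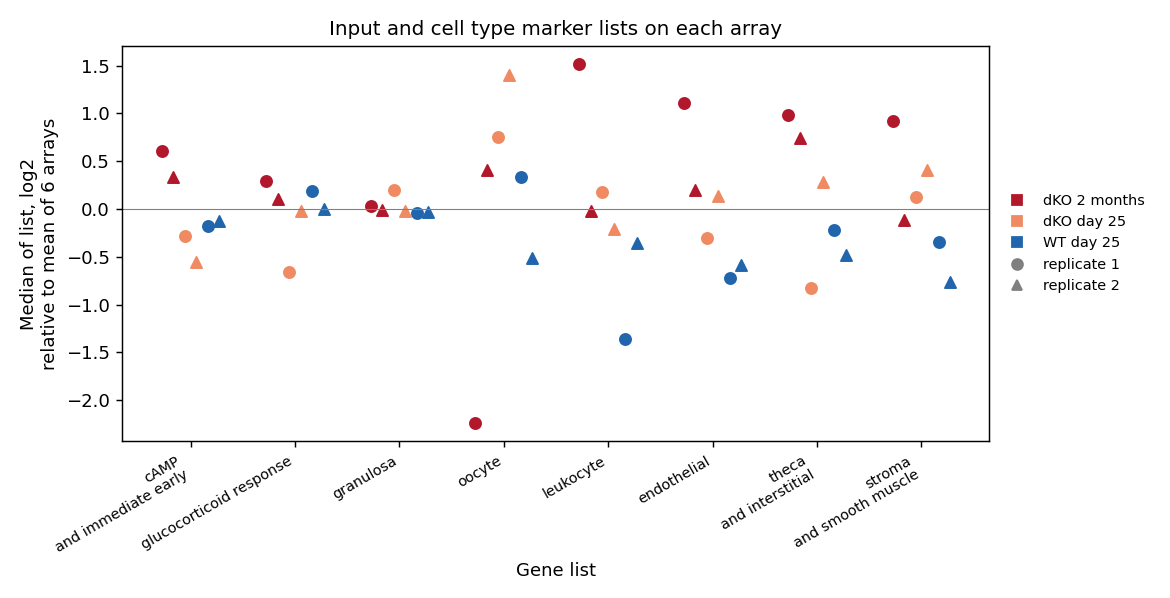
Median log2 level of each gene list relative to the mean of the 6 arrays (vertical axis), for lists of genes that share inputs with Per1 and Per2 and for cell type markers; colours are groups, circles replicate 1 and triangles replicate 2. dKO 2-month replicate 1 is lowest for oocyte markers (-2.24) and highest for leukocyte markers (1.52), while granulosa markers lie between -0.04 and 0.19.

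The cell make-up read from marker genes moved with the clock genes on that array. In bulk RNA, fewer cells of a type and less RNA per cell cannot be told apart. Granulosa markers, such as the inhibin subunit Inha, summed to 101351 and 91830 in dKO at 2 months, 101169 and 91344 in dKO at day 25, and 91127 and 97636 in WT. That sum weighs bright markers most, such as Inha and Inhbb, which lie near the top of the scale. Single markers did move on dKO 2-month replicate 1. Amh had 1819 and 4016 in dKO at 2 months, Fshr 1126 and 1857, and Foxl2 13167 and 8826. Oocyte markers summed to 5773 and 30758 in dKO at 2 months, 39060 and 57283 in dKO at day 25, and 27196 and 16504 in WT, with 10 of 11 at their lowest on dKO 2-month replicate 1. Leukocyte markers summed to 12819 and 4281 in dKO at 2 months, 6746 and 3833 in dKO at day 25, and 1333 and 2802 in WT, with 10 of 10 at their highest on that array. Endothelial markers were likewise at their highest there, 8 of 8, summing to 2441 and 1350 in dKO at 2 months, 898 and 1279 in dKO at day 25, and 697 and 802 in WT. Stromal markers had a median relative level of 0.92 and -0.12 in dKO at 2 months, 0.13 and 0.41 in dKO at day 25, and -0.35 and -0.77 in WT. On dKO 2-month replicate 1, 6 of 10 were at their highest. Col1a1 (529 and 565), Col1a2 (6145 and 6504), Col3a1 (6198 and 6053) and Pdgfra (650 and 674) hardly differed between the 2-month replicates. The median of theca and interstitial markers was 0.98 and 0.75 in dKO at 2 months, -0.83 and 0.28 in dKO at day 25, and -0.22 and -0.48 in WT. Cyp17a1, Cyp11a1 and Star were above all day 25 arrays on both 2-month arrays. Ptch1 (2613 and 2114) and Gli1 (80 and 88) lay within the day 25 values, as did Hsd3b1 on replicate 2 (14402). The part of these cells in the clock values was not tested.

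The genes most like Per2 over the 6 arrays also include some of other cell types. Among 11075 genes with a mean intensity of at least 100, the closest were Gprc5b, Esam, Apoe, Lgr5 and Gimap4, with root mean square differences of centred log2 values between 0.13 and 0.20. Esam, an adhesion molecule of endothelial cells, had 894 and 349 in dKO at 2 months, 204 and 319 in dKO at day 25, and 184 and 246 in WT. Apoe, a lipid carrier, had 8277 and 3534 in dKO at 2 months, 1925 and 2973 in dKO at day 25, and 1731 and 2216 in WT. No clock gene was among the 5. This likeness rests on 6 arrays, and dKO 2-month replicate 1 was the highest array for each of the 5.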

How the data were processed

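Total RNA was labelled with biotin and measured on 1 Affymetrix array per sample, per the labels. What the authors deposited is linear intensity, 1 whole number per probe set, and the submitters' processing notes name affy and RMA; versions and genome build are not given in the sources used here. RMA makes the arrays share 1 distribution (median 73 or 74), so a shift of most genes would not be seen. Values were transformed as log2(value + 1), which understates changes of dim genes; 64 controls of 45101 probe sets were left out. The platform annotation named 1 gene for 34945 probe sets, several for 932 and none for 9160.

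A single fit of group means over all 6 arrays (R 4.3.3, limma 3.58.1, 3 residual degrees of freedom, two-sided) gave the 3 comparisons, with Benjamini-Hochberg adjustment over 45037 probe sets and a threshold of 0.05. The code was tested on simulated data. Named genes were the 10 members, fixed lists of clock, input and marker genes, and the 5 genes closest to the member of widest range; members and lists were chosen with earlier results of these data known. Nothing in the labels ties replicates to separate mice, so the spread behind the p-values may be technical. The number of arrays limits the precision. Replicate numbers were not taken as pairs, since the deviations of same-numbered arrays correlated at -0.16, 0.06 and -0.21 in the 3 comparisons. Alternatives were another pseudocount, repeated quantile normalization, centring, leaving out dim probe sets, another prior, fewer arrays, probe set types, a replicate block, all probe sets of a gene and leaving out each array; a crossed block, array weights, probe sets other than the brightest, and lists with arrays left out were added after seeing the data.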

Additional observations from a re-analysis of the deposited data

How the results depend on the processing

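At an adjusted p under 0.05 the count of probe sets was 0 in each comparison and each alternative run (limma), clock probe sets included. Unadjusted p under 0.05 was reached by 2337 to 6110 probe sets for dKO against WT at day 25, 1608 to 10127 for dKO at 2 months against dKO at day 25 and 2960 to 11312 for dKO at 2 months against WT with 1 array left out, against 3668, 2514 and 5900 with all arrays; the highest counts of the 2-month comparisons came without dKO 2-month replicate 2. With dim probe sets left out they were 2002, 1205 and 3411, as fewer were fitted, and with array weights 5853, 1910 and 4994. With only the 4 arrays compared they were 6110, 1793 and 4623.

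Clock probe sets at that p numbered 2 for dKO against WT at day 25. The count was 1 with a pseudocount of 16, arrays centred on the median, repeated quantile normalization, dim probe sets left out, the trend and robust prior, or the replicate block, and 5 with a crossed replicate block on the 4 arrays compared (6226 over all probe sets); it ran from 1 to 3 with 1 array left out. For dKO at 2 months against dKO at day 25 it was 2, but 1 with a pseudocount of 16 or the replicate block, 0 with only the 4 arrays compared, and 0 to 11 with 1 array left out. For dKO at 2 months against WT it was 3, but 1 with only the 4 arrays compared, and 0 to 12 with 1 array left out. The highest clock counts of the 2-month comparisons came without dKO 2-month replicate 2, as did those over all probe sets. The cause of these changes in the clock counts was not tested.

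The arm contrast ran from -0.10 to 0.28 for dKO against WT at day 25, 0.09 to 1.59 for dKO at 2 months against dKO at day 25 and 0.17 to 1.68 for dKO at 2 months against WT with 1 array left out. With the mean of all probe sets per gene it was 0.08, 0.63 and 0.72. On other probe sets of the same gene, of which there are 13, the sign differed from that of the brightest for 4 at day 25 (Clock, Nr1d2, Per2, Per3), 7 between the dKO ages (Clock, Nr1d2, Per3) and 4 for dKO at 2 months against WT (Clock, Npas2, Per3), an alternative added after seeing the data. On the brightest probe sets, signs turned only when an array was left out, among the alternatives run. At day 25 these were Per2 (-0.33 to 0.41), Npas2 (-0.0645 to 1.15) and Nr1d2 (-0.26 to 0.12). Between the dKO ages they were Clock (-0.12 to 0.155), Cry2 (-0.021 to 0.77), Nr1d2 (-0.0688 to 0.77) and Dbp (-0.39 to 1.11), and for dKO at 2 months against WT Npas2 (-1.09 to 0.22), Cry1 (-0.93 to 0.19), Nr1d1 (-0.28 to 0.17) and Nr1d2 (-0.14 to 0.70). Where 1 array remained in a group, its spread was taken from the others. Dim probe sets, Npas2 among them, lie near the floor of the signal, where differences are compressed.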
